A study of Mus musculus with 35 samples.

Results

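Expression of 10 genes of the Nrf2 and glutathione antioxidant system was examined, out of 54119 genes in the deposited tables. The cells came from mouse brain and were captured for the astrocyte surface antigen ACSA2. The genes were taken by name, and all 10 were detected in all 35 libraries. The animals were male C57BL/6JRj mice. From an age of 8 to 9 weeks they ate standard chow (SC) for 4 months, or for the same time a diet rich in fat and sugar (HFHS, 58%). The groups were hypothalamus on SC (6 libraries) and HFHS (5), hippocampus on SC (5) and HFHS (7), and cortex on SC (6) and HFHS (6). Each library pooled tissue of 2 animals, and its cells were captured by magnetic sorting for ACSA2, the product of Atp1b2 on the astrocyte surface. MS columns were used for the hypothalamus and hippocampus, and LS columns with scaled-up reagents for the cortex, so column and region cannot be told apart in any comparison with cortex. The labels give no genetic change in any group.

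Nrf2, encoded by Nfe2l2, is a transcription factor that is held at a low level by Keap1, which passes it to degradation. Oxidants and electrophiles modify Keap1, Nrf2 then accumulates, pairs with small Maf proteins and binds antioxidant response elements of its target genes. In the brain the pathway is known to be more active in astrocytes than in neurons, and astrocytes supply neurons with glutathione precursors. The cystine importer Slc7a11, the 2 subunits of glutamate-cysteine ligase (Gclc and Gclm) and glutathione synthetase (Gss) make glutathione. Glutathione reductase (Gsr) recycles it, thioredoxin reductase 1 (Txnrd1) serves the parallel thioredoxin system, and Nqo1 and Hmox1 reduce quinones and break down haem.

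Start-site windows from RefSeq (build GRCm38.p6, 250 bases before to 50 after an annotated start) were available for 7 of the 10 genes, in 9 windows. They were searched on both strands for TGACNNNGC, a core of the antioxidant response element. The core was present in 1 window each of 3 genes, and in 12.4% of all 32851 windows of the table. The 200 bases furthest upstream in these 3 windows are shown 5′ to 3′ along the gene's strand, because they hold the match, which stands in capitals.
Nfe2l2, chr2:75704714-75704913, minus strand: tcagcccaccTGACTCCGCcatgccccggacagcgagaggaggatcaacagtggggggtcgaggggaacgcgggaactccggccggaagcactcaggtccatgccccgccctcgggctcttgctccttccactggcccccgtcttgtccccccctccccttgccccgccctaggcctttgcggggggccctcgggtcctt
Gclm, chr3:122245307-122245506, plus strand: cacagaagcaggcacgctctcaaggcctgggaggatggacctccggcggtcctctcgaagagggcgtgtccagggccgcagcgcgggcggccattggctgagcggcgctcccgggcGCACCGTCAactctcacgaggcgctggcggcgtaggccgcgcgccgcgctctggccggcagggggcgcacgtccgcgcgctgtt
Txnrd1, chr10:82858956-82859155, plus strand: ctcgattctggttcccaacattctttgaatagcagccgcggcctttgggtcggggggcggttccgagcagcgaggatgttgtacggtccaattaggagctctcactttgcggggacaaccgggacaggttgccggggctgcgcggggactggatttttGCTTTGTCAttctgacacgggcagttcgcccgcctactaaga
In Nfe2l2 the core lies on the gene's own strand and begins at position -240 from the start. In Gclm and Txnrd1 it lies on the opposite strand, at -134 and -92. These are matches of letters, with no measurement of binding here.

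Marker genes of the labelled cell type were present, beside markers of others. All 14 astrocyte markers of a fixed list were detected in every group. Their summed level was 21278 to 55725 CPM (library-scaled counts, with TMM factors over all libraries) in the cortex groups, 3871 to 26245 CPM in the hypothalamus groups and 2046 to 16429 CPM in the hippocampus groups. Summed oligodendrocyte markers (10 genes) lay between 51749 and 134581 CPM in hippocampus and between 51571 and 139534 CPM in hypothalamus, above the astrocyte sum in every library of both. In cortex their medians were 43791 CPM on SC and 52528 CPM on HFHS, against 31109 and 33471 CPM for the astrocyte markers. No marker on any of the 12 cell type lists was at 0 in all libraries of a group. In bulk samples, fewer cells of a type and less RNA per cell cannot be told apart. In 3 libraries (hypothalamus SC 6, cortex SC 6 and cortex HFHS 6) the TPM-weighted mean transcript length was 1034 to 1469 bases, against 1533 to 1858 in the other 32. Without these libraries all 14 calls of members between regions stayed on the same side of 0 and of the threshold. Diet values without them are given for several genes in which they stood low or high, but not for all, such as Keap1 and Txnrd1 in hypothalamus. Depth was 47578560 to 65982495 assigned reads per library.

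Per unit of transcript length (TPM), Gclm led in hypothalamus and cortex on SC and Gss in hippocampus. Gclm had a mean of 84.8 ± 6.80 TPM (SD, n = 6) in hypothalamus, 72.7 ± 31.8 (n = 5) in hippocampus and 88.4 ± 30.0 (n = 6) in cortex on SC. Slc7a11 and Hmox1 were the 2 lowest of the 10 in all 3 regions on SC. Hmox1 was at 14.4 ± 4.05, 8.89 ± 1.10 and 9.37 ± 2.83 TPM, and Slc7a11 at 7.95 ± 4.04, 5.02 ± 3.71 and 12.2 ± 2.77 TPM, in the order hypothalamus, hippocampus and cortex. In hypothalamus on SC the order was Gclm, Keap1, Gclc, Gss, Gsr, Nfe2l2, Txnrd1, Nqo1, Hmox1 and Slc7a11. In hippocampus it was Gss, Gclm, Nfe2l2, Keap1, Gclc, Gsr, Nqo1, Txnrd1, Hmox1 and Slc7a11, and in cortex Gclm, Nfe2l2, Keap1, Gclc, Gss, Txnrd1, Gsr, Nqo1, Slc7a11 and Hmox1. The ranges of mean ± SD of neighbours in these orders overlapped, except for Gclm over Keap1 and Txnrd1 over Nqo1 in hypothalamus and Txnrd1 over Hmox1 in hippocampus.

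**Figure D1:**
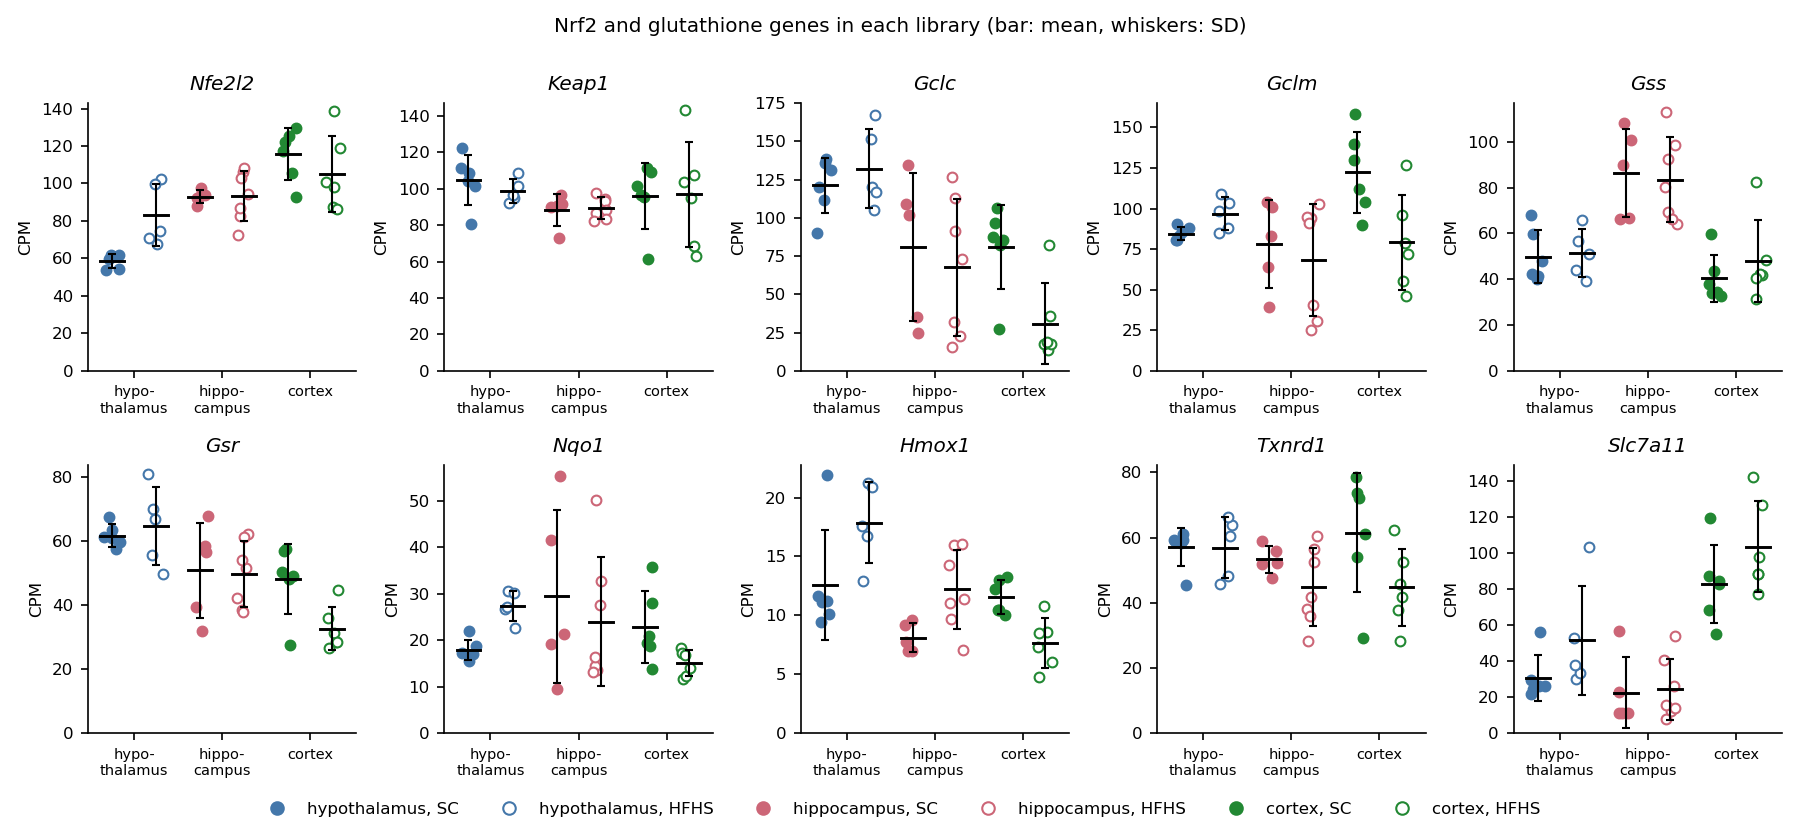
CPM of the 10 genes in each library; points are libraries (filled SC, open HFHS), bars are group means and whiskers SD. Gclc in cortex on HFHS holds 5 libraries from 13.4 to 35.9 CPM and 1 at 82.2 CPM, and Slc7a11 is highest in the cortex groups.

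The diet comparison asked whether the ACSA2-captured fraction of each region differed between HFHS and SC. In edgeR's quasi-likelihood test with Benjamini-Hochberg adjustment over all genes, 0 of the 10 genes passed an adjusted p of 0.05 in hypothalamus (0% of all 19272 genes called), in hippocampus (0% of 19036) or in cortex (0% of 17844). At an unadjusted p under 0.05 there were 3, 1 and 5 members, beside 8.5%, 5.17% and 9.26% of all genes. DESeq2 called 1 member in hypothalamus (Nqo1), where it called 0.462% of all genes, and 0 in the other regions. Voom with quality weights called 2 in cortex (Gclc and Gsr), where it called 2.91% of all genes, and 0 in the others. Without the short libraries edgeR called 1 in cortex (Gsr), beside 2.86% of all genes. Limma on log2(TPM + 1) called 0 in each region. The median log2 fold change of the members was 0.15 in hypothalamus, -0.06 in hippocampus and -0.48 in cortex, beside -0.01, 0.00 and -0.02 over all genes tested. In hypothalamus, levels of some cell type markers also differed between the diets, and 0 genes of the lists named here passed the adjusted threshold. The summed astrocyte markers overlapped, at 3871 to 7174 CPM on SC and 6336 to 26245 CPM on HFHS, and 8 of 14 had an unadjusted p under 0.05. The summed markers of oligodendrocyte precursors did not overlap, at 349 to 1115 CPM on SC and 84.8 to 321 CPM on HFHS, and 7 of 8 had an unadjusted p under 0.05. Choroid plexus markers overlapped, at 63.4 to 638 CPM on SC and 87.0 to 3021 CPM on HFHS. Their median log2 fold change was 1.74, and 2 of 6 had an unadjusted p under 0.05. In hippocampus an unadjusted p under 0.05 held for 4 of 11 microglia and macrophage markers and 4 of 8 precursor markers. It also held for 3 of 6 fibroblast and 3 of 8 mural markers. The medians of these lists were 0.73, -0.93, 0.00 and 0.09. In cortex it held for 2 of 10 oligodendrocyte markers (median 0.65) and 2 of 8 mural markers (median -0.07). Each other list held at most 2 such markers in either region. The part of markers in the values of the members was not tested in any region.

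Differences between regions were called for 6 of the 10 genes in at least 1 of 6 comparisons, where 54.9% of all genes were called in at least 1. Between hypothalamus and cortex on SC, 0 members were higher and 2 lower in hypothalamus, where 17.7% and 18.3% of all 21574 genes were called in these directions. On HFHS 3 were higher and 0 lower, beside 14.6% and 9.21% of all genes. In hippocampus over cortex 1 was higher and 1 lower on SC, beside 15.4% and 15.3% of all genes. On HFHS 3 were higher and 1 lower, beside 13.4% and 10.8%. In hypothalamus over hippocampus 0 were higher and 2 lower on SC, beside 5.86% and 4.13% of all genes, and 0 higher and 1 lower on HFHS, beside 4.24% and 2.18%. With 10 members, 1 more or fewer call moves a share by 10 percentage points, and most of these counts were near the background. The medians of the members in these 6 comparisons, in the order given, were 0.01, 0.32, -0.16, 0.30, 0.18 and 0.36, beside 0.06, 0.01, 0.04, 0.05, 0.02 and 0.01 over all genes. Cell type markers differed between the same groups. Of 14 astrocyte markers, 12 were lower in hypothalamus and 13 in hippocampus than in cortex on SC, and 7 of 10 oligodendrocyte markers were higher in hippocampus. Their part in the members' differences was not tested.

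**Figure D2:**
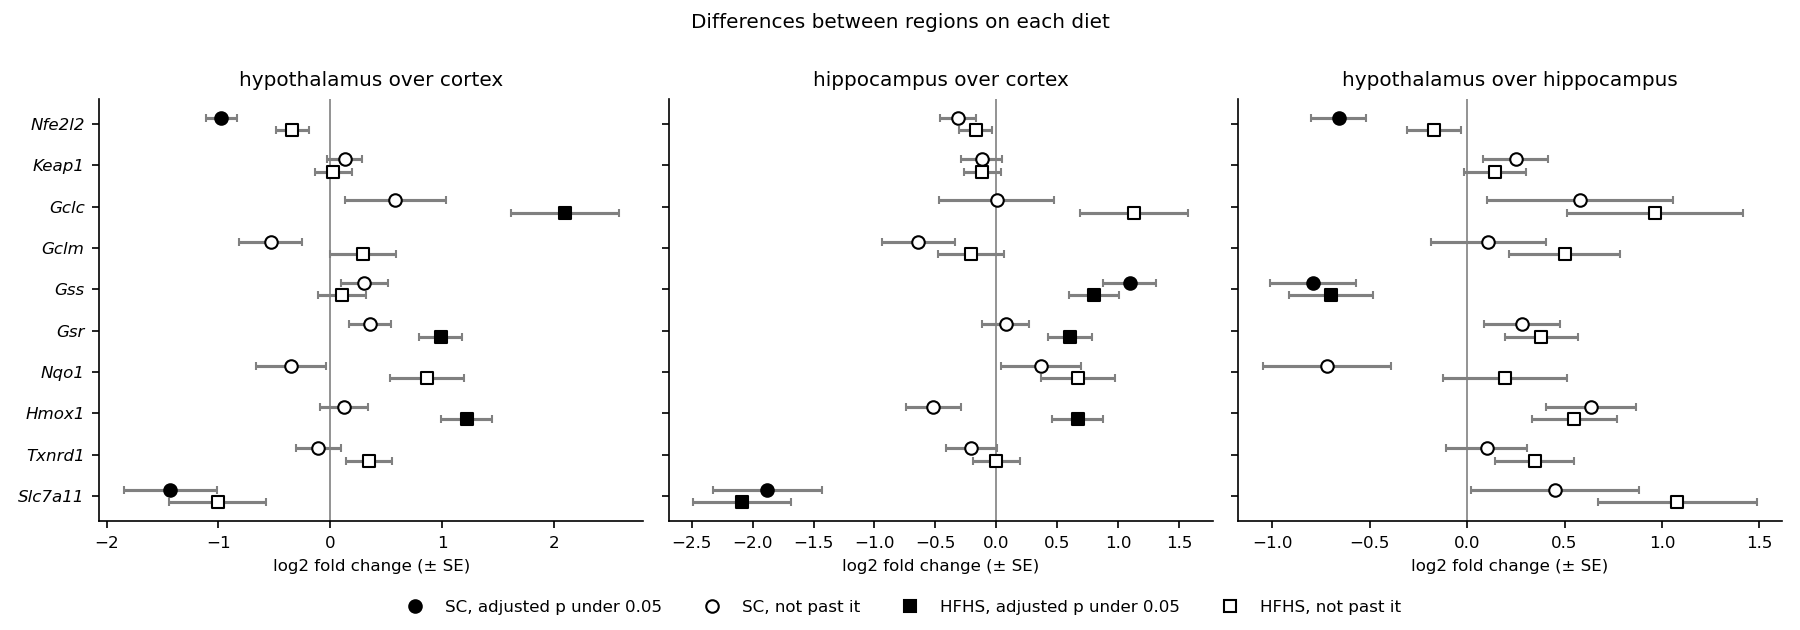
Log2 fold change ± SE of each gene between 2 regions, circles on SC and squares on HFHS, filled where the adjusted p is under 0.05. Slc7a11 lies left of 0 in both comparisons with cortex, and Gss right of 0 in hippocampus over cortex.

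The regulator Nfe2l2 (chr2:75675513-75704641, minus strand, GRCm38) had its lowest level in hypothalamus on SC. The lowest, median and highest libraries there were at 53.6, 60.5 and 61.8 CPM. The hippocampus SC libraries were at 97.7, 87.7, 93.9, 92.4 and 92.9 CPM, and cortex on SC ran from 93.0 over a median of 120 to 129 CPM. No hypothalamus library on SC reached the lowest library of the other regions on SC. Nfe2l2 was lower in hypothalamus than in cortex on SC by a log2 fold change of -0.97 ± 0.14 (SE; edgeR adjusted p = 1.2e-06). Against hippocampus on SC the log2 fold change was -0.66 ± 0.14 (edgeR adjusted p = 0.0031). On the log2(TPM + 1) scale of limma the first difference was -0.37 (adjusted p = 0.114), where the median of all genes moved by 0.24 toward hypothalamus. On that scale the second was -0.55 (adjusted p = 0.059).

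On HFHS the 5 hypothalamus libraries held 102, 99.8, 67.7, 70.7 and 74.8 CPM of Nfe2l2, all above the highest SC library. The log2 fold change with diet was 0.49 ± 0.14 (edgeR adjusted p = 0.47), so the absence of overlap did not pass the adjustment over all genes. In hippocampus Nfe2l2 was at 93.4 ± 13.3 CPM (SD, n = 7) on HFHS and 92.9 ± 3.57 (n = 5) on SC. In cortex the means were 105 ± 20.3 (n = 6) and 116 ± 13.8 (n = 6), with a log2 fold change of -0.11, and of -0.17 without the short libraries. Between hypothalamus and cortex on HFHS the log2 fold change was -0.34 ± 0.14 (edgeR adjusted p = 0.087), and -0.36 in DESeq2 (adjusted p = 0.0278).

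Keap1 (chr9:21229730-21239361, minus strand), the inhibitor that marks Nrf2 for degradation, had group means close to each other. They ran from 88.3 ± 8.89 CPM (hippocampus on SC) to 105 ± 13.9 CPM (hypothalamus on SC). Its diet log2 fold changes with all libraries were -0.09 in hypothalamus, 0.00 in hippocampus and 0.04 in cortex, and it was called in 0 of the 6 region comparisons. The lowest and highest single libraries were both in cortex, SC 6 at 61.2 CPM and HFHS 2 at 143 CPM.

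Slc7a11 (chr3:49892526-50443614, minus strand), which exchanges cystine for glutamate, was highest in cortex on both diets. Cortex on SC ran from 54.9 over a median of 83.6 to 119 CPM, and on HFHS from 77.4 over 93.1 to 142 CPM. The hippocampus SC libraries held 10.9, 56.7, 10.9, 22.9 and 10.9 CPM, and those on HFHS ran from 7.82 over 15.4 to 53.6 CPM. Hippocampus SC 2 and cortex SC 4 were the points where the regions met on SC. Slc7a11 was lower in hippocampus than in cortex by a log2 fold change of -1.88 ± 0.45 on SC (edgeR adjusted p = 0.0020) and of -2.09 ± 0.40 on HFHS (edgeR adjusted p = 0.00026). In hypothalamus it ran from 21.8 over 26.2 to 56.2 CPM on SC, and the 5 HFHS libraries were at 30.2, 103, 52.7, 33.3 and 37.6 CPM.

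The difference of Slc7a11 between hypothalamus and cortex was -1.43 ± 0.42 on SC (edgeR adjusted p = 0.0073) and -1.01 ± 0.44 on HFHS (adjusted p = 0.093). DESeq2 gave -1.05 (adjusted p = 0.0484) and voom -1.22 (adjusted p = 0.00612) on HFHS. Without hypothalamus HFHS 2, the library at 103 CPM, the latter was -1.42 (adjusted p = 0.021). On the log2(TPM + 1) scale the SC difference was -0.62 (limma adjusted p = 0.127). The diet log2 fold change in hypothalamus was 0.73 ± 0.33 (edgeR adjusted p = 0.57), and 0.31 without the same library. In cortex it was 0.36 ± 0.23 (edgeR adjusted p = 0.71), and 0.45 without the short libraries (adjusted p = 0.23).

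In hippocampus, libraries rich in Slc7a11 were also those with high astrocyte markers. The astrocyte score (mean log2(CPM + 1) of the 14 markers) was 9.33 in hippocampus SC 2, 9.22 in HFHS 2 and 9.14 in HFHS 7, where Slc7a11 stood at 56.7, 53.6 and 40.8 CPM. In the hippocampus libraries with a score between 6.36 and 7.52, Slc7a11 lay between 7.82 and 15.4 CPM. Hypothalamus HFHS 2, at 103 CPM, had a score of 10.3, within the cortex range of 9.53 to 10.8. Other hypothalamus libraries did not keep this order, with HFHS 3 at 52.7 CPM and a score of 8.37 and HFHS 5 at 37.6 CPM and 8.58. Within cortex the highest score, in SC 2, went with 82.9 CPM and the lowest, in HFHS 3, with 88.3 CPM. The part of astrocyte content in the region differences of Slc7a11 was not tested.

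**Figure D3:**
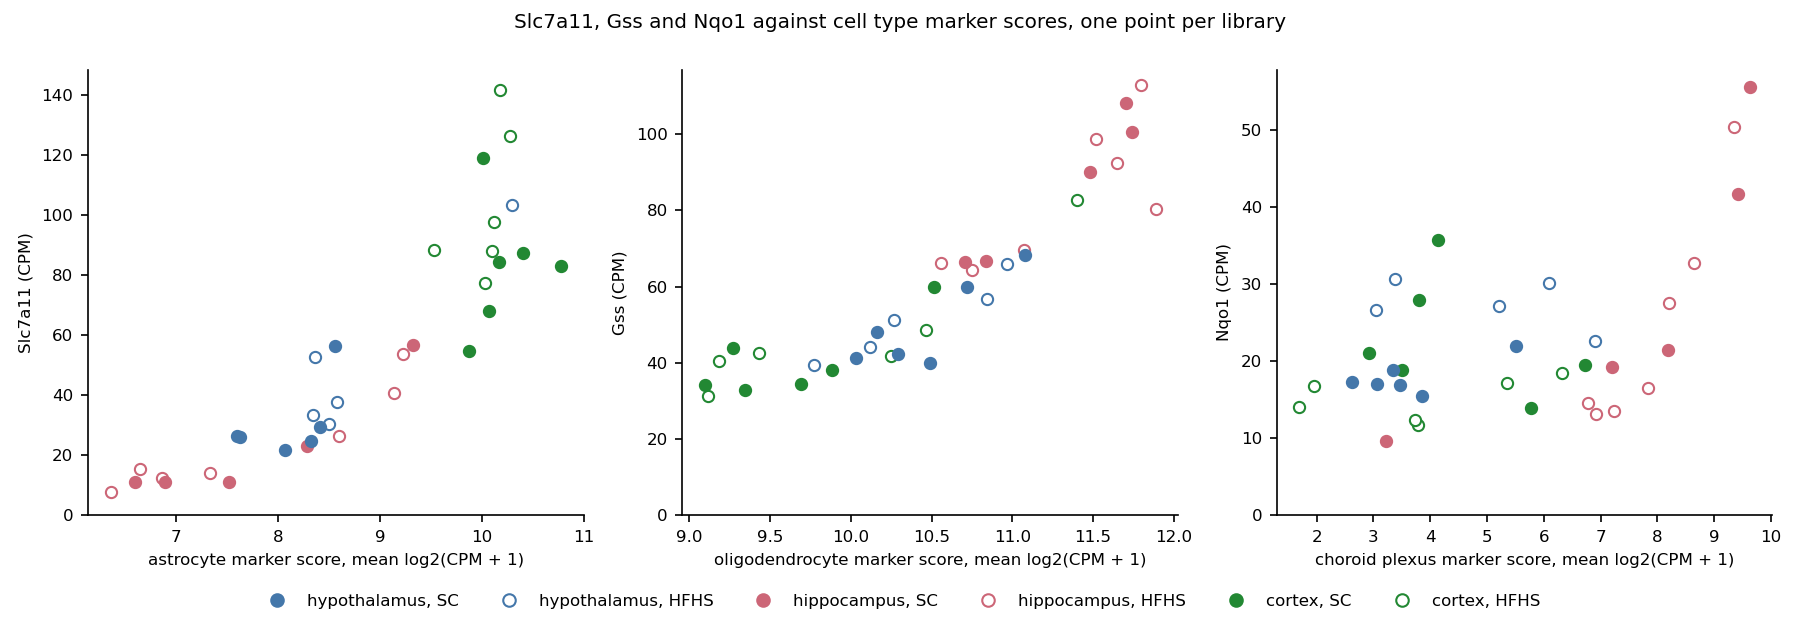
CPM of Slc7a11, Gss and Nqo1 against the score of astrocyte, oligodendrocyte and choroid plexus markers, 1 point per library. Every library above 50 CPM of Slc7a11 has an astrocyte score above 8.3, Gss is above 80 CPM where the oligodendrocyte score is above 11.3, and the hippocampus points of Nqo1 reach 55.5 CPM at a choroid plexus score of 9.63.

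Gclc (chr9:77754535-77794485, plus strand), the catalytic subunit of the ligase that limits glutathione synthesis, ran from 13.4 to 167 CPM over all libraries. Nearly all of its TPM (99.1% on average) came from 1 protein-coding transcript. In cortex the 6 SC libraries held 87.5, 106, 82.4, 96.7, 85.4 and 27.6 CPM, and the 6 HFHS libraries 82.2, 13.4, 17.3, 17.7, 19.1 and 35.9 CPM. HFHS 1 stood with the SC libraries and SC 6 with the HFHS libraries, so the groups overlapped through these 2. The log2 fold change with diet was -1.37 ± 0.45 (edgeR adjusted p = 0.29). Without the short libraries SC 6 and HFHS 6 it was -1.57 (adjusted p = 0.0897), and without HFHS 1 it was -1.96 (adjusted p = 0.0276). With all libraries, voom gave -1.84 (adjusted p = 0.0192).

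Gclc in hippocampus was split between low and high libraries on both diets. The SC libraries were at 102, 35.3, 135, 24.8 and 109 CPM, and the HFHS libraries at 72.9, 15.9, 91.1, 31.6, 22.5, 126 and 113 CPM. The diet log2 fold change was -0.28 ± 0.54 (edgeR adjusted p = 0.94). Hypothalamus had no low library, with 90.2, 126 and 138 CPM as lowest, median and highest on SC and 120, 117, 105, 167 and 152 CPM on HFHS.

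Gclc was higher in hypothalamus than in cortex on HFHS by a log2 fold change of 2.09 ± 0.48 (edgeR adjusted p = 0.0014), with no overlap between the 2 groups. On SC the same difference was 0.58 ± 0.45 (adjusted p = 0.33). The difference between these 2 differences, the interaction of diet and region, was 1.51 ± 0.65 (edgeR adjusted p = 0.36) and did not pass the threshold.

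Gclm (chr3:122245557-122270732, plus strand), the modifier subunit that raises the ligase's activity and whose window holds the core shown above, was called in 0 of the comparisons in edgeR. Limma on log2(TPM + 1) called it higher in hypothalamus than in cortex on HFHS (1.13, adjusted p = 0.0349), and edgeR on the 2 compared groups alone lower there on SC (-0.52, adjusted p = 0.0189). In cortex it was at 130, 158, 140, 112, 104 and 89.9 CPM on SC and at 127, 46.2, 55.1, 71.8, 78.6 and 96.3 CPM on HFHS, with overlap through SC 6, HFHS 1 and HFHS 6. The log2 fold change was -0.59 ± 0.25 (edgeR adjusted p = 0.47), and -0.70 without the short libraries SC 6 and HFHS 6 (adjusted p = 0.138). In hypothalamus Gclm was at 84.5 ± 4.03 CPM on SC (SD, n = 6) and 96.9 ± 10.1 on HFHS (n = 5). Gclm overlaps Gm17494 on the opposite strand, which was assigned a mean of 19.8 CPM against 87.7 for Gclm, and the cDNA kit keeps no strand.

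The share of the leading Gclm transcript did not overlap between the diets in cortex. Gclm-206, a protein-coding transcript of 1002 bases, made up 59.9, 61.0, 60.9, 59.2, 57.8 and 56.7% of the gene's TPM on SC and 51.8, 50.6, 43.4, 42.0, 40.9 and 56.0% on HFHS. HFHS 6 and SC 6, both short libraries, lay closest to each other. The difference of -11.8 percentage points had an exact two-sided permutation p of 0.0022. This was 1 of 30 such tests on 5 genes with a leading transcript at up to 90% of the TPM, and its adjusted value was 0.065. With 6 libraries on each diet, a p of 0.0022 is the smallest this test can give. A single full separation could therefore not pass over 30 tests. Without the short libraries the difference was -14.0 percentage points (adjusted 0.202). There the smallest possible p is larger, so the higher adjusted value does not measure a weaker difference. In hippocampus the Gclm-206 share was also split, with both diets in each set. It was 48.6 to 53.8% in SC 2, SC 4, HFHS 2, HFHS 4 and HFHS 5, the libraries low in Gclc. In the other 7 hippocampus libraries it was 57.8 to 62.4%. What the splits in the 2 regions share was not tested. The leading Slc7a11 transcript took 85.8 ± 4.56% on HFHS and 77.5 ± 6.14% on SC in cortex (exact permutation p = 0.024, adjusted 0.24). In hypothalamus on SC its share was 65.5 ± 7.99% (exact permutation p against cortex = 0.017, adjusted 0.24). None of the 30 tests passed the adjusted threshold, which a single test of 6 against 6 libraries could not pass.

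Gsr (chr8:33652523-33698163, plus strand), which returns oxidised glutathione to its reduced form, varied with Gclc. In cortex it was at 50.4, 56.8, 48.1, 57.5, 49.1 and 27.6 CPM on SC and at 44.9, 28.6, 31.4, 26.7, 28.5 and 36.1 CPM on HFHS. SC 6 alone brought the groups into overlap. The log2 fold change was -0.53 ± 0.21 (edgeR adjusted p = 0.42), and without the short libraries SC 6 and HFHS 6 it was -0.65 (adjusted p = 0.0454). Gsr was higher on HFHS in hypothalamus than in cortex, where the 5 hypothalamus libraries were at 66.9, 55.7, 49.9, 81.2 and 70.1 CPM, by a log2 fold change of 0.99 ± 0.19 (edgeR adjusted p = 0.00024). It was also higher on HFHS in hippocampus, at 49.8 ± 10.4 CPM (n = 7), than in cortex by 0.61 ± 0.18 (edgeR adjusted p = 0.013). On SC the difference between hypothalamus and cortex was 0.36 ± 0.19 (edgeR adjusted p = 0.13), and on the log2(TPM + 1) scale 0.91 (limma adjusted p = 0.00964). The interaction for hypothalamus and cortex was 0.63 ± 0.27 (edgeR adjusted p = 0.35).

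The same hippocampus libraries were low in Gclc, Gclm and Gsr. In SC 2, SC 4, HFHS 2, HFHS 4 and HFHS 5, Gclc lay between 15.9 and 35.3 CPM, against 72.9 to 135 in the other 7. Gclm lay between 25.5 and 63.8 CPM in these 5 and between 83.1 and 104 in the other 7, and Gsr between 31.9 and 42.3 against 51.8 and 67.9. The other 7 members overlapped between the 2 sets. The sets were read off the Gclc values, so their separation in Gclc is a description and no test was made. Both diets were in each set. The astrocyte score ranged from 6.64 to 9.33 in the 5 and from 6.36 to 9.14 in the other 7. Dapk3, a protein kinase outside the pathway that was chosen after its values were seen, was at 0.417 to 1.22 CPM in the 5 and at 1.63 to 38.1 CPM in the other 7. In cortex Dapk3 was at 0.442 to 1.85 CPM on HFHS and at 2.00 to 35.7 CPM on SC, without overlap. Low Dapk3 also occurred beside high Gclc. Dapk3 was at 1.85 CPM in cortex HFHS 1, 1.63 in hippocampus HFHS 3, 3.86 in cortex SC 5 and 2.92 in hypothalamus HFHS 5. Gclc in these libraries was at 82.2, 91.1, 85.4 and 152 CPM. What Dapk3 and the 3 genes share in hippocampus and cortex, and the part of Dapk3 in the cortex diet values of Gclc, Gclm and Gsr, was not tested.

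**Figure D4:**
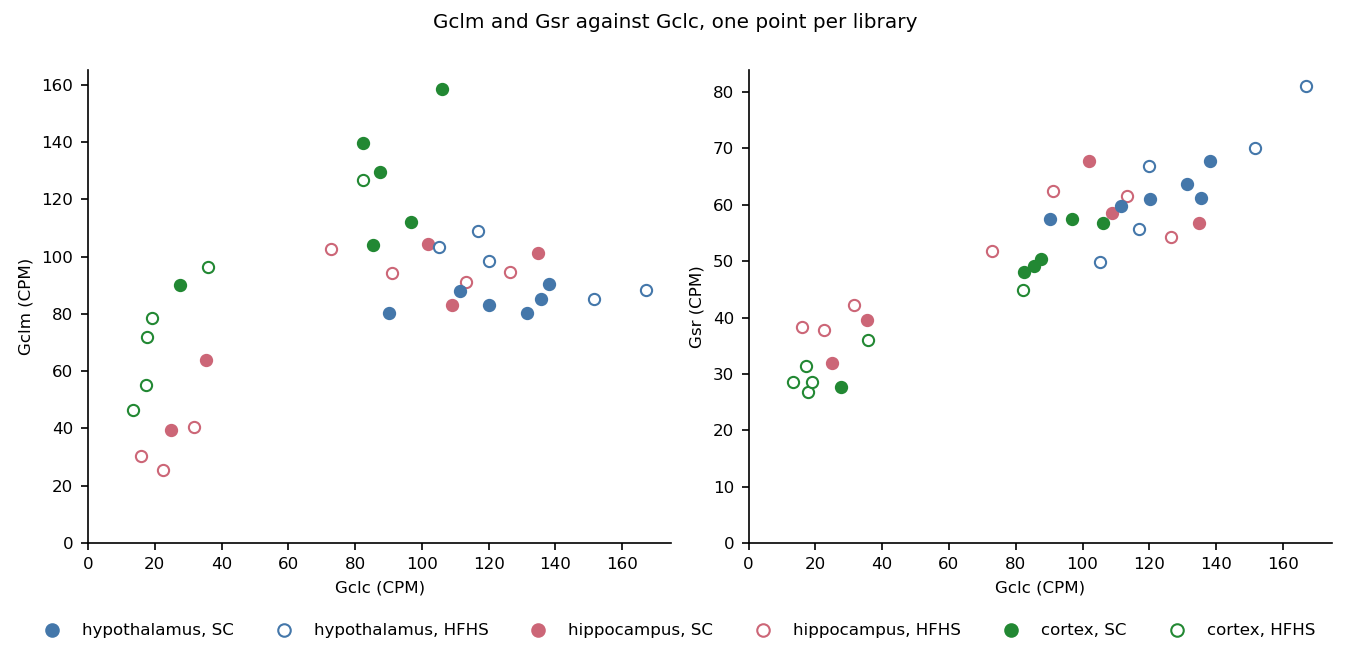
Gclm and Gsr against Gclc in CPM, 1 point per library, filled on SC and open on HFHS. The 5 hippocampus libraries under 36 CPM of Gclc are also the lowest hippocampus libraries in Gclm and Gsr, and the low cortex points are 5 HFHS libraries and SC 6.

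Gss (chr2:155563181-155592810, minus strand), the enzyme of the last step of glutathione synthesis, was highest in hippocampus. The hippocampus SC libraries were at 108, 90.1, 101, 66.4 and 66.8 CPM and those on HFHS ran from 64.3 over 80.4 to 113 CPM. Cortex ran from 32.7 over 36.2 to 59.9 CPM on SC and from 31.3 over 42.1 to 82.7 CPM on HFHS, so that hippocampus and cortex did not overlap on SC. Gss was higher in hippocampus than in cortex by a log2 fold change of 1.09 ± 0.22 on SC (edgeR adjusted p = 0.00037) and of 0.80 ± 0.20 on HFHS (edgeR adjusted p = 0.0039).

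Hypothalamus was at 49.9 ± 11.6 CPM of Gss (SD, n = 6) on SC and 51.5 ± 10.4 (n = 5) on HFHS. It was lower than hippocampus by -0.79 ± 0.22 on SC (edgeR adjusted p = 0.018) and by -0.70 ± 0.22 on HFHS (edgeR adjusted p = 0.045). The SC call was lost without hippocampus SC 1 (-0.70, adjusted p = 0.0669). The HFHS call was lost without any 1 of hypothalamus HFHS 1, 2, 4 and 5 and hippocampus HFHS 1, 2, 3 and 4, with adjusted p from 0.0617 to 0.135, and without the filter on low counts (adjusted p = 0.0845). On the log2(TPM + 1) scale neither passed, at -0.67 on SC and -0.60 on HFHS (limma adjusted p = 0.115 and 0.175). The diet log2 fold change was 0.03 in hypothalamus, -0.06 in hippocampus and 0.28 in cortex.

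Within cortex and within hippocampus, Gss was high where oligodendrocyte markers were high. Cortex HFHS 3, at 82.7 CPM, had an oligodendrocyte score of 11.4, against 9.10 to 10.5 in the other cortex libraries. In hippocampus the 5 libraries at 64.3 to 69.5 CPM had scores of 10.6 to 11.1, and the 7 at 80.4 to 113 CPM had scores of 11.5 to 11.9. The summed level of the 10 oligodendrocyte markers had a median of 100772 CPM in hippocampus on SC and 43791 CPM in cortex on SC. In hypothalamus on SC this median was 96259 CPM, near that of hippocampus, while Gss was at 49.9 ± 11.6 against 86.4 ± 19.2 CPM. The mean oligodendrocyte score was 10.5 there and 11.3 in hippocampus on SC. The part of oligodendrocyte content in the region differences of Gss was not tested. Gss also overlaps Acss2 on the opposite strand, which was assigned 134 CPM on average against 60.1 for Gss, so reads of the 2 genes may be uncertain where they overlap.

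Txnrd1 (chr10:82833951-82897712, plus strand), which reduces thioredoxin with NADPH, was called in 0 comparisons. Its group means ran from 44.8 ± 12.0 CPM (hippocampus on HFHS) to 61.5 ± 18.3 CPM (cortex on SC). In cortex it ran from 29.1 over 66.7 to 78.6 CPM on SC and from 28.4 over 43.8 to 62.2 CPM on HFHS. Both lowest libraries were short ones, SC 6 and HFHS 6. The diet log2 fold change there was -0.42 ± 0.26 (edgeR adjusted p = 0.69), and -0.44 without them (adjusted p = 0.14).

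Nqo1 (chr8:107388225-107403206, minus strand), a quinone reductase often used as a readout of Nrf2, had the smallest unadjusted p of the diet comparison in hypothalamus among the 10. The SC libraries there ran from 15.5 over 17.1 to 21.9 CPM, and the HFHS libraries were at 26.7, 30.7, 22.6, 30.1 and 27.2 CPM, all above the highest on SC. The log2 fold change was 0.61 ± 0.14 (edgeR adjusted p = 0.47), and in DESeq2 it was 0.62 (adjusted p = 0.00813). In cortex Nqo1 was at 13.8, 28.0, 21.0, 19.5, 18.8 and 35.7 CPM on SC and at 18.4, 11.7, 12.4, 17.2, 14.0 and 16.8 CPM on HFHS, with overlap at SC 1. That log2 fold change was -0.56 ± 0.24 (edgeR adjusted p = 0.48). Without the short libraries SC 6, the highest on SC, and HFHS 6 it was -0.39 (adjusted p = 0.331). Between these regions on HFHS the difference was 0.86 ± 0.33 (edgeR adjusted p = 0.054), and it passed in DESeq2 (0.85, adjusted p = 0.0468) and voom (0.86, adjusted p = 0.0407). The interaction between the 2 regions was 1.21 ± 0.46 (edgeR adjusted p = 0.30).

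In hippocampus Nqo1 spanned 9.59 to 55.5 CPM on SC and 13.1 to 50.3 CPM on HFHS, with a diet log2 fold change of -0.32 ± 0.45 (edgeR adjusted p = 0.92). The 3 highest libraries, SC 5, HFHS 5 and SC 4, were at 55.5, 50.3 and 41.6 CPM. They were also the 3 highest in the choroid plexus score (mean of 6 markers), at 9.63, 9.34 and 9.42. The lowest library, SC 3 at 9.59 CPM, had the lowest score of the region, 3.22. The summed choroid plexus markers ran from 93.7 to 22102 CPM in hippocampus on SC and from 2706 to 20891 on HFHS, and from 63.4 to 638 CPM in hypothalamus on SC and from 87.0 to 3021 on HFHS. The part of these markers in Nqo1 was not tested.

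Hmox1 (chr8:75093621-75100589, plus strand), which breaks down haem to biliverdin, iron and carbon monoxide, was among the least abundant of the 10. In hypothalamus it was at 9.46, 11.1, 11.6, 10.1, 11.2 and 21.9 CPM on SC and at 17.6, 21.3, 20.9, 12.9 and 16.7 CPM on HFHS. The single SC library above 12 CPM was the short library SC 6. The log2 fold change was 0.49 ± 0.24 (edgeR adjusted p = 0.60), and 0.74 without SC 6 (adjusted p = 0.145). In hippocampus the SC libraries were at 9.21, 7.75, 6.93, 7.01 and 9.56 CPM and the HFHS libraries ran from 7.07 over 11.3 to 16.1, with a log2 fold change of 0.57 ± 0.22 (edgeR adjusted p = 0.88). The highest there, HFHS 4 and HFHS 2 at 16.1 and 16.0 CPM, also had the region's highest summed microglia and macrophage markers, 1893 and 1128 CPM. HFHS 3, at 14.2 CPM of Hmox1, had 637 CPM of them, and SC 5, at 9.56 CPM, had 703. The part of these markers in Hmox1 was not tested. In cortex Hmox1 ran from 10.0 over 11.4 to 13.2 CPM on SC and from 4.77 over 7.92 to 10.8 CPM on HFHS, where 5 of 6 HFHS libraries lay below every SC library. That log2 fold change was -0.56 ± 0.22 (edgeR adjusted p = 0.42), and -0.53 without the short libraries (adjusted p = 0.24).

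On HFHS, Hmox1 was higher than in cortex in hypothalamus by a log2 fold change of 1.22 ± 0.23 (edgeR adjusted p = 0.00012) and in hippocampus by 0.67 ± 0.21 (edgeR adjusted p = 0.019). The latter call was lost without cortex HFHS 5 (0.56, adjusted p = 0.0586) and in a fit of the 2 compared groups alone (0.67, adjusted p = 0.0691). The difference of the diet effects was 1.10 ± 0.31 for hypothalamus and cortex (edgeR adjusted p = 0.21) and 1.18 ± 0.31 for hippocampus and cortex (edgeR adjusted p = 0.45).

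In edgeR with all libraries, 0 members passed the threshold in the interaction of diet with region, and 0% of all 21574 genes were called in each of the 3 interactions. At an unadjusted p under 0.05 there were 5 members for hypothalamus minus cortex (11.6% of all genes), 1 for hippocampus minus cortex (9.3%) and 1 for hypothalamus minus hippocampus (2.01%). DESeq2 called 0 members in all 3. Voom called 2 for hypothalamus minus cortex (2.77% of all genes), Hmox1 (1.09, adjusted p = 0.0233) and Nfe2l2 (0.68, adjusted p = 0.0265). For Nfe2l2 the interaction of hypothalamus and cortex was 0.64 ± 0.20 (edgeR adjusted p = 0.23). Without the 3 short libraries (2.23% of all genes called), Hmox1 (1.29, adjusted p = 0.0312) and Nfe2l2 (0.71, adjusted p = 0.0434) passed in edgeR, with the diet log2 fold change the higher one in hypothalamus.

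**Figure D5:**
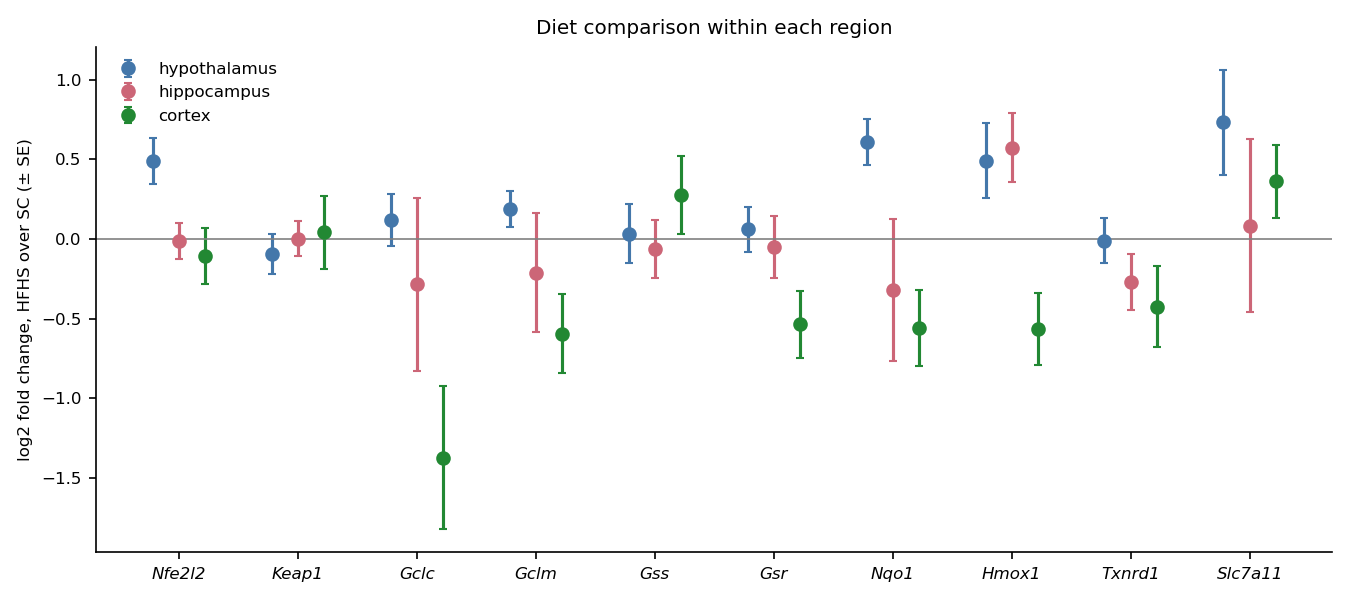
Log2 fold change ± SE of HFHS over SC for each gene in hypothalamus, hippocampus and cortex. The cortex points of Gclc (-1.37), Gclm (-0.59), Hmox1 (-0.56), Nqo1 (-0.56), Gsr (-0.53) and Txnrd1 (-0.42) lie below 0, and those of Slc7a11 (0.36) and Gss (0.28) above it. The hypothalamus points of Slc7a11 (0.73), Nqo1 (0.61), Hmox1 (0.49) and Nfe2l2 (0.49) lie above 0, and 0 genes passed the adjusted threshold in any region.

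The genes most like each member over the 35 libraries were found by Pearson's r of log2 CPM with group means subtracted, among 10168 genes. Gclc was most like Mlycd (r = 0.955), Clptm1l (0.948) and Ptov1 (0.945), and Gclm most like Lamp1 (0.936), Ptov1 (0.93) and Ppp2ca (0.925). For Gsr the leading gene was Gclc itself (0.891), ahead of Cab39 (0.854) and Mapkapk2 (0.837). Slc7a11 was most like Plpp3 (0.91), Fut9 (0.898) and Egfr (0.888), and Gss most like Adssl1 (0.894), Mog (0.891), which encodes a myelin glycoprotein, and Sirt2 (0.891). Nqo1 was most like Arl6ip1 (0.91), Pgrmc1 (0.883) and Acad8 (0.879), and Txnrd1 most like Aldh4a1 (0.91), Kifc3 (0.884) and Dnajc5 (0.874). Keap1 was most like Rnf114 (0.859), Gle1 (0.857) and Strn4 (0.851). The closest genes to Nfe2l2, Tmem68 (0.738), Eif2a (0.711) and Impa1 (0.699), and to Hmox1, Npl (0.575), Bambi (0.562) and Gal3st4 (0.56), were less like them. These points share their libraries and their depth, and the correlations are descriptions.

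Beyond the 10 genes, 115 further genes of the pathway in 8 lists were examined. With diet, 113 were tested in hypothalamus and hippocampus and 112 in cortex, and 0 were called in any region in edgeR. At an unadjusted p under 0.05 in edgeR there were 16 in hypothalamus, 4 in hippocampus and 3 in cortex. Over all genes these shares were 8.5%, 5.17% and 9.26%. DESeq2 and voom each called 1, the NADPH-forming malic enzyme Me1, lower on HFHS in cortex (beside 2.67% and 2.91% of all genes called) and named here after its values were seen. Without the short libraries edgeR called 2 there (beside 2.86% of all genes), and limma on log2(TPM + 1) called 0 in each region. Between hypothalamus and cortex on SC, 9 were higher and 46 lower in hypothalamus, beside 17.7% and 18.3% of all genes. The median log2 fold change was -0.52 beside 0.06 over all genes. Between hippocampus and cortex on SC, 14 were higher and 36 lower (beside 15.4% and 15.3% of all genes), with a median of -0.39 beside 0.04. On the log2(TPM + 1) scale of limma, 27 were higher and 22 lower in hypothalamus, beside 34.3% and 6.67% of all genes. In hippocampus 29 were higher and 19 lower, beside 26.8% and 6.88% of all genes. The split of all genes differs between the scales, so these counts are read against the shares of their own scale. On HFHS the counts in edgeR were 10 and 15 for hypothalamus (beside 14.6% and 9.21% of all genes) and 17 and 20 for hippocampus (beside 13.4% and 10.8%). In limma on log2(TPM + 1) they were 21 and 8 (beside 19.2% and 4.64% of all genes), and 28 and 13 (beside 17.7% and 6.26%). Hypothalamus against hippocampus gave 2 and 10 on SC (beside 5.86% and 4.13% of all genes) and 4 and 3 on HFHS (beside 4.24% and 2.18%). Without the short libraries the SC counts were 8 and 23. The share of all genes in that fit is not given here, so this rise is no result about the lists.

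The most abundant genes of each list are given with their values, and all calls by list are from edgeR on counts. Beside them stand 18.3% of all genes lower and 17.7% higher in hypothalamus than in cortex on SC, and 15.3% lower and 15.4% higher in hippocampus. In small lists, 1 gene moves the share by several percentage points, and counts near these shares are no result about a list. The glutathione transferases Gstm1 and Gstm5 were at 4243 ± 3957 and 2553 ± 2958 CPM (mean ± SD, n = 6) in cortex on SC. They were at 947 ± 213 and 211 ± 70.8 in hypothalamus (n = 6) and 933 ± 320 and 372 ± 180 in hippocampus (n = 5). In cortex the SD was close to the mean for Gstm1 and above it for Gstm5, so these means do not describe a typical library. The log2 fold changes of hypothalamus over cortex were -2.16 ± 0.45 for Gstm1 and -3.59 ± 0.54 for Gstm5 (edgeR adjusted p = 0.00030 and 3.6e-06). Of 29 peroxidases and transferases tested, 12 were lower and 3 higher in hypothalamus, and 12 lower and 2 higher in hippocampus. Of 15 thioredoxins and peroxiredoxins, 9 were lower and 1 higher in hypothalamus, and 9 lower and 0 higher in hippocampus. Among these, Prdx6 was at 3248 ± 1394 CPM in cortex, 1083 ± 243 in hypothalamus and 666 ± 244 in hippocampus (mean ± SD). Prdx1 was at 1451 ± 1198, 473 ± 76.9 and 749 ± 139 CPM.

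Slc3a2, the partner chain of Slc7a11 in the cystine importer, was at 493 CPM in cortex, 195 in hypothalamus and 233 in hippocampus on SC. Like Slc7a11 it was lower than in cortex in both, with log2 fold changes of -1.34 ± 0.20 and -1.08 ± 0.21 (edgeR adjusted p = 2.4e-06 and 0.00025). Of the 15 genes of cystine and glutathione turnover, 2 were higher and 6 lower in hypothalamus, and 3 higher and 4 lower in hippocampus. Of the 13 Nrf2 regulators 1 was higher and 3 lower in hypothalamus, and 2 higher and 1 lower in hippocampus. The adaptor Sqstm1, which competes for Keap1, was at 461 ± 52.7 CPM in cortex, 464 ± 75.4 in hypothalamus and 613 ± 100 in hippocampus (mean ± SD). Rbx1, a part of the ubiquitin ligase that Keap1 serves, was at 281 ± 218, 134 ± 22.6 and 158 ± 16.1 CPM.

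Further lists were counted in the same way on SC. In NADPH supply (10 genes) 0 were higher and 5 lower in hypothalamus and 2 higher and 3 lower in hippocampus, with Taldo1 at 245 CPM in cortex, 239 in hypothalamus and 447 in hippocampus and Tkt at 324, 202 and 305. In haem and iron handling (10 genes) the counts were 0 and 3, and 2 and 1. The ferritin chain Fth1 was at 13198 ± 10016, 15811 ± 3649 and 10668 ± 2838 CPM (mean ± SD), and Ftl1 at 2170 ± 2489, 945 ± 170 and 1088 ± 111. Superoxide and peroxide removal (6 genes) gave 0 and 4, and 0 and 3. Park7 was at 293 ± 328, 133 ± 22.9 and 143 ± 7.29 CPM (mean ± SD), and Cat at 199 ± 39.4, 127 ± 11.3 and 162 ± 22.2. For Ftl1 and Park7 the SD in cortex was above the mean, so these means do not describe a typical library. Cortex on SC holds the short library SC 6, and means of the wider lists without it are not given here. Other Nrf2 targets (16 genes) gave 2 and 4, and 3 and 3, with Aldh1a1 at 321, 133 and 153 CPM, Slc6a9 at 160, 353 and 447 CPM, and Lap3, of the turnover list, at 308, 134 and 278 CPM. Astrocyte markers were lower than in cortex in the same comparisons, and their part was not tested.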

How the data were processed

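RNA of ACSA2-captured cells was measured in 35 libraries of 6 groups. Per the submitters' processing notes the authors used FastQC and Salmon on build GRCm38, with versions and transcript set not given in the sources used here. Per the file headers, the deposited columns hold the estimated count and the TPM of each transcript. Of 140948 transcripts, 139852 matched GENCODE mouse release M21 after the version suffix was dropped, and the 1096 others (0.214% to 0.535% of a library's counts) were left out. Counts were summed per gene and rounded. Each pool is a replicate by its label, and p-values measure the spread between pools.

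Genes were tested with edgeR 4.0.16 in R 4.3.3 (filterByExpr, TMM, robust quasi-likelihood), adjusted by Benjamini-Hochberg over all genes tested. Diet was fitted on each region's own libraries, and regions and interactions on 1 model of all 6 groups. SE was taken as the log2 fold change over the root of the F statistic. Alternatives were DESeq2 1.42.0, voom and limma 3.58.1 on log2(TPM + 1), RLE factors, no filter, the short libraries or each replicate left out, other sets of groups and a replicate block. Numbers in the labels were taken to pair libraries where every pair correlated above 0.1. This held for hypothalamus and cortex on SC (6 pairs, r from 0.108 to 0.531, mean 0.295), and the block gave the same 2 calls there. Equally numbered libraries of the 2 diets, which are different animals, had a mean r of 0.419 in cortex, 0.449 in hippocampus and 0.18 in hypothalamus. The correlation therefore does not show that equal numbers mark the same animals. The edgeR test was checked on simulated counts drawn independently for each gene and library. They held no short libraries and no effects shared within a library, so the check does not cover these.

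All 10 members were described, with the 3 genes most like each (mean log2 CPM of at least 3) and the 2 most abundant genes of each wider list. Members and lists were chosen with earlier results of these data known. Of the 12 marker lists, hypothalamus over cortex on SC gave (higher and lower, of tested) astrocyte 0 and 12 of 14, oligodendrocyte 3 and 0 of 10, oligodendrocyte precursor 8 and 0 of 8, microglia and macrophage 0 and 0 of 11, endothelial 0 and 2 of 9, mural 2 and 2 of 8, fibroblast 5 and 0 of 6, ependymal 8 and 0 of 8, tanycyte 5 and 2 of 8, neuron 0 and 5 of 8, choroid plexus 1 and 2 of 6, and erythroid 0 and 0 of 5.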

Additional observations from a re-analysis of the deposited data

Results flagged for a closer look

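Of 60 groups of a gene's values in a region and diet, 9 held a library whose gap to its nearest neighbour took up an unusually large part of the group's range by Dixon's criterion, which chance alone flags in about 1 of 20 groups. In cortex SC 6, a short library, Keap1 was at 61.2 CPM (others 95.4 to 112), Gclc at 27.6 CPM (others 82.4 to 106) and Gsr at 27.6 CPM (others 48.1 to 57.5). In cortex HFHS 1, Gclc was at 82.2 CPM (others 13.4 to 35.9), and in cortex HFHS 3, Gss was at 82.7 CPM (others 31.3 to 48.6). In hypothalamus SC 6, a short library, Hmox1 was at 21.9 CPM (others 9.46 to 11.6) and Txnrd1 at 45.5 CPM (others 58.2 to 61.2). Slc7a11 was at 56.2 CPM in hypothalamus SC 2 (others 21.8 to 29.2) and at 56.7 CPM in hippocampus SC 2 (others 10.9 to 22.9).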

How the results depend on the processing

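Of 929 recomputed values of the 41 single results, 893 kept their direction and their side of the threshold, 18 gained and 17 lost a call, and 1 turned direction (Nqo1 with diet in hippocampus, at -0.62 to 0.05 with single replicates left out and at 0.05 without hippocampus SC 5, not called). Counts of members called moved as follows, and the causes were not tested. For diet, DESeq2 gave 1 in hypothalamus. In cortex, voom gave 2, omission of the short libraries 1, and omission of single replicates 0 to 1. For the interaction of hypothalamus and cortex, voom and omission of the short libraries gave 2 each. For hypothalamus and cortex on HFHS (3 called), DESeq2 gave 6, and voom, limma on TPM and the fit on only these groups 5 each, with 3 to 5 when single replicates were left out. DESeq2 gave 4 for hippocampus and cortex on SC (2 called). For hypothalamus and hippocampus on SC (2 called), limma on TPM gave 0 and single omissions 1 to 2. On HFHS (1 called), voom gave 4, no filter 0 and single omissions 0 to 1. The replicate block gave 5 for hypothalamus and cortex and 4 for hypothalamus and hippocampus, both on HFHS, where the numbers did not meet the rule for pairing, and it changed no other count of members by over 1.5 times.

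On the TPM scale the median of all genes moved by 0.24 for hypothalamus over cortex on SC, and 7391 genes were higher and 1439 lower, against 3827 and 3955 on counts. Relative to that shift Nfe2l2 stood at -0.61 and Slc7a11 at -0.86. Over all genes, the diet comparison in cortex gave 0 calls in edgeR, 476 in DESeq2, 519 with voom, 412 with the block and 515 without the short libraries. Each group holds 5 to 7 pools, and the lowest count of a member in any library was 272 reads (Hmox1).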
